A study of Mus musculus with 12 samples.

Results

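Genes of lineage-determining and homeobox transcription factors were examined in a promoter Capture-C comparison of blood stem cells from the fetal liver and the adult bone marrow of the mouse. They were taken by gene name (names that begin with Hox, Sox, Fox, Gata, Tbx, Klf, Runx, Cebp, Ikzf, Gfi, Nfi, the ETS names Ets, Etv, Elf and Elk, the nuclear receptor names, and related stems), leaving out 9 captured genes: Sox17, Gata2, Gfi1b, Runx1, Meis1, Hoxa9, Cebpa, Egr1 and Foxo3. The rule found 83 captured promoters of 64 genes among the 3781 captured promoters of 3374 genes, and 1875 of the 89545 listed contacts. Of the 64 genes, 60 encode transcription factors or their Id partners, with 77 promoters. The other 4 (Foxred2, Pbxip1, Rars2 and Tbxas1, with 6 promoters) match the name pattern alone. No promoter named for Pax, Irx, Meis, Egr or Bach entered the list, and 15 genes had more than 1 captured promoter, marked by a numbered suffix as in the deposited table.

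Fetal cells came from livers at embryonic day 14.5 and adult cells from the bone marrow of mice aged 6 to 8 weeks, all of strain B6129SF1 with no genetic change named in the labels. Both were sorted as lineage-negative, Sca1-positive, cKit-positive and CD135-negative cells, a gate that also admits progenitors. Each population had 4 libraries, 2 in each of 2 batches (the first, batch 1, and the second, batch 2), and the deposited table gives 1 pooled value for each population in each batch. There is therefore no replicate error and no test for any difference below, and whether libraries came from separate animals is not stated. Wild-type and TCF3-knockout HPC7 cells, a mouse blood progenitor line, were not analysed here.

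In Capture-C, cross-linked chromatin is cut (here with DpnII), neighbouring ends are ligated, and probes pull out the ligation products of chosen promoters. A contact joins 1 captured fragment to 1 bin of 2 kb elsewhere. It was called in a population when the authors' score (on a scale like −log10 p) was above 0. The lowest such score was 1.3 in batch 1 and 2 in batch 2, so the batches were kept apart in call shares set against all promoters. Totals over a gene family, over promoters chosen by FPKM and over the further regulators sum both batches where both hold promoters. Such totals mix unlike score limits. Transcription factors of these families set the identity of blood lineages: GATA and KLF proteins act in red cell and megakaryocyte development, C/EBP and GFI1 proteins in granulocytes, IKZF and RUNX proteins in lymphoid and stem cells, and HOX proteins in stem cell self-renewal. Their genes are known to be controlled by enhancers that can lie far from the promoter, and an enhancer is commonly recognised by open chromatin and active histone marks.

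Promoter sequence was read from RefSeq windows on GRCm38.p6, from 250 bases before to 50 after a transcription start, for the 51 of 64 genes with an entry (72 windows). These coordinates are not those of the contact files, which use mm9. The members' windows had a median GC content of 60.7% and a median of 16 CpG sites, against 60% and 19 for 3292 windows of 2472 captured genes and 52.7% and 7 for 32851 windows of all 27025 genes. The GATA word (AGATAA or TGATAA, either strand) occurred in 6 of 72 windows (8.33%), against 10.3% of windows of captured genes and 18.6% of all windows. The RUNX word (TGTGGT) occurred in 13.9%, 13.2% and 16.8%, and the KLF words (CCACACCC or the GC box CCGCCC) in 59.7%, 61.3% and 37.8%. The members were thus close to captured genes in general. The 4 windows shown belong to genes with contrasting contacts: Hoxa7 (contacts beyond 1 Mb), Klf1 (higher expression in fetal cells), Klf4 (contacts called in adult cells alone) and Cebpb (many contacts, all on its higher-coordinate side). Capitals mark matches to these words or to the DpnII site GATC.
Hoxa7, chr6:52218524-52218823, minus strand: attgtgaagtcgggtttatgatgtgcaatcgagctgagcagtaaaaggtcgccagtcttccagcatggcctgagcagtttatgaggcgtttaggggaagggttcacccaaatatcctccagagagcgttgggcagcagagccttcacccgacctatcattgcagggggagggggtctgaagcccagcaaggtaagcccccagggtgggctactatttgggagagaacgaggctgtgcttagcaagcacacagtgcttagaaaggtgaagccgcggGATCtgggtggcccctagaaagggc
Klf1, chr8:84901732-84902031, plus strand: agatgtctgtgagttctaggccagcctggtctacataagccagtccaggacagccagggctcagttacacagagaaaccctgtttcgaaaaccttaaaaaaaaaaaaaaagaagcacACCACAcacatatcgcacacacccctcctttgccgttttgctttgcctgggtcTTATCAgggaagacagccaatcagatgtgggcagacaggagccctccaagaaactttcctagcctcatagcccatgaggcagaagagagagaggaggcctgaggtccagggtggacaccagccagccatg
Klf4, chr4:55532426-55532725, minus strand: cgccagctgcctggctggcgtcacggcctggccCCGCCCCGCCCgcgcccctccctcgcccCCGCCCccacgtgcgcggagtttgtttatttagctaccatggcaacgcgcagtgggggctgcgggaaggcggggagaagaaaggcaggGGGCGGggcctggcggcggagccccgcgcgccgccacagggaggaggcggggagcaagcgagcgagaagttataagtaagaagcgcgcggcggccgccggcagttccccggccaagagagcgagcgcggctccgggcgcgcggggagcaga
Cebpb, chr2:167688665-167688964, plus strand: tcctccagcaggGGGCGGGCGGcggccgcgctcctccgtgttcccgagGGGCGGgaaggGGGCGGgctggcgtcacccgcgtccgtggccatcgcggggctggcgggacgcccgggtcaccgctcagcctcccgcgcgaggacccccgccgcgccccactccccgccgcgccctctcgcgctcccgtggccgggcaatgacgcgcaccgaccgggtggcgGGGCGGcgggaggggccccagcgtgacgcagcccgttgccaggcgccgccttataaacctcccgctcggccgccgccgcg

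The Klf1 window held 1 GATA match and 1 RUNX match in a sequence with 3 CpG sites. The Klf4 window had 40 CpG sites and 4 GC-box matches, some overlapping, and the Cebpb window had 50 and 5. The Hoxa7 window held 9 CpG sites, a DpnII site and no match to the other words. A match describes letters and does not show binding.

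Counts summed over all listed contacts were 1312829 fetal and 1098957 adult in batch 1, and 2368080 and 2135161 in batch 2. Of these the members held 18667 and 17455 in batch 1, and 24902 and 21506 in batch 2. A called contact of a member had a median count of 11 (fetal) or 11.5 (adult) in batch 1 and 32 or 31 in batch 2. Markers of stem and progenitor cells were expressed in both populations, with 9 of 11 listed genes captured and a summed FPKM (expression normalised for transcript length and depth, taking the highest promoter entry of each gene) of 186 fetal and 233 adult. Markers of other cell types differed. The captured granulocyte markers (5 of 6) summed to 81.9 fetal and 6.24 adult FPKM, the macrophage markers (8 of 9) to 57.3 and 1.79, and the erythroid markers (6 of 7) to 78.9 and 17.6. The megakaryocyte markers (4 of 4) ran the other way, at 24.1 and 174, and endothelial markers were level at 8.94 and 8.49. No captured marker was at exactly 0, and none of the 5 hepatocyte or 8 lymphoid markers was captured. Flt3, which encodes CD135, was listed at 6.20 and 3.81 FPKM.

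The listed promoters made about as many contacts in fetal as in adult cells. In batch 1, 53 promoters had 805 fetal and 724 adult calls, with a median of 10 fetal and 9 adult calls per promoter. In batch 2, 30 promoters had 437 and 429 calls, with medians of 9 and 9.5. More fetal than adult calls were made at 27 promoters of batch 1 (50.9%, against 48.1% of all promoters), fewer at 19 (35.8%, against 42.1%), and equal numbers at 7. In batch 2 the numbers were 16 (53.3%, against 50.1%), 12 (40%, against 38.1%) and 2. These shares lie near the background. The same held for promoters with at least 2-fold more calls after adding 1 to each side. In batch 1, 7 of 53 passed in the fetal direction (13.2%, against 10.9%) and 5 in the adult direction (9.43%, against 9.84%). In batch 2, 2 of 30 passed in each direction (6.67%, against 11.6% and 7.87%). Calls ranged from 0 to 60 per promoter in fetal cells and from 0 to 52 in adult cells. Of the 83 promoters, 54 had at least 10 calls over both populations, 17 had 5 or fewer, 5 had no fetal call and 3 had no adult call.

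**Figure D1:**
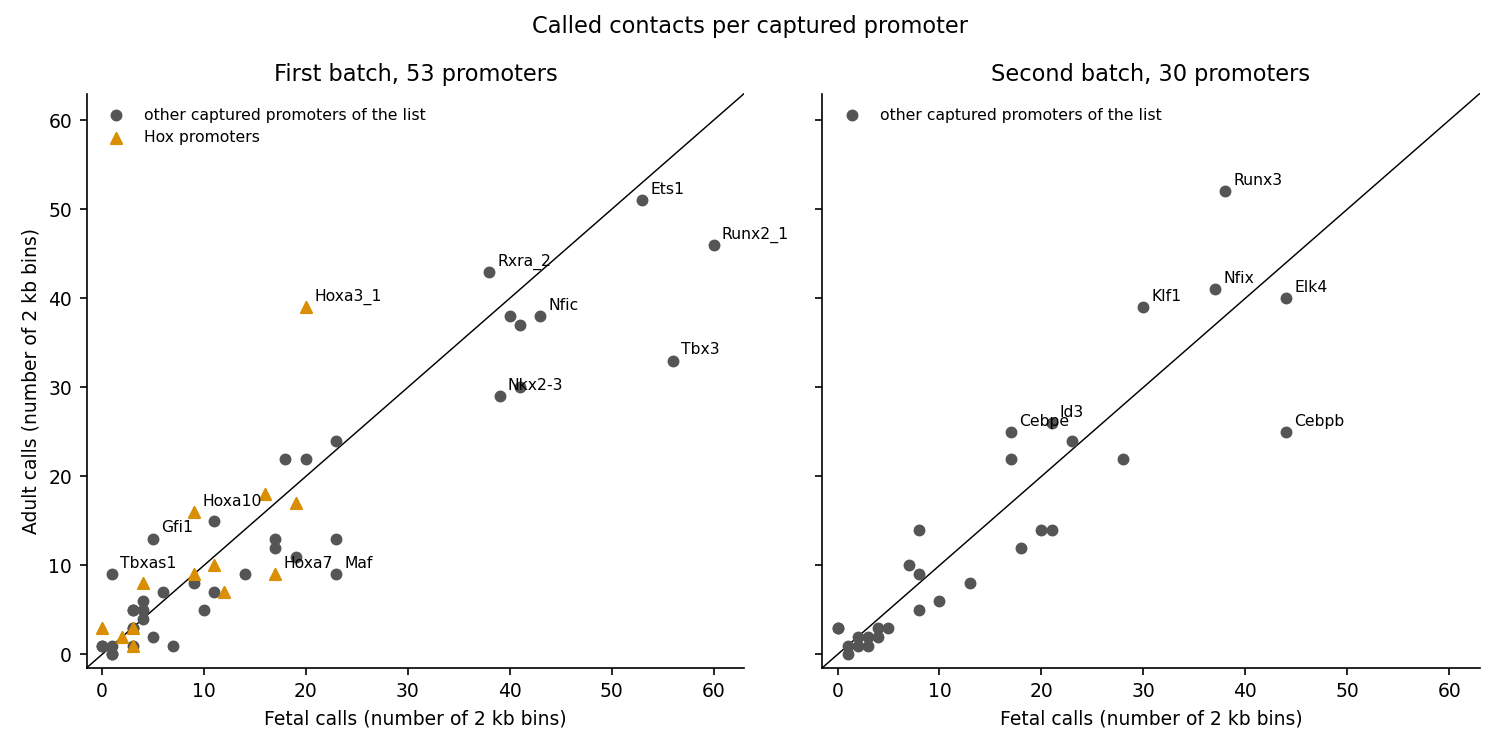
Called contacts per captured promoter in adult (vertical axis) against fetal cells (horizontal axis), as numbers of 2 kb bins, with batch 1 (53 promoters) on the left and the second (30) on the right; triangles are Hox promoters and the line marks equal numbers. Most points lie near the line, with Tbx3 (56 fetal, 33 adult), Maf (23 and 9) and Cebpb (44 and 25) on the fetal side and Hoxa3_1 (20 and 39) and Runx3 (38 and 52) on the adult side.

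The distal bins of these genes carried the active enhancer state more often, and the active promoter state less often, than those of all captured promoters. In batch 2 both differences lay largely at 3 promoters. In batch 1, 155 of 805 fetal calls (19.3%, exact Clopper-Pearson 95% interval 16.6 to 22.2) and 138 of 724 adult calls (19.1%, 16.3 to 22.1) met a bin annotated as an active enhancer in that population. The shares over all promoters were 12.7% and 13.1%. In batch 2 the members' shares were 26.1% (22 to 30.5) and 28% (23.8 to 32.5), against 12.9% and 13.7%. These intervals cover counting error alone, and calls in adjoining bins make them too narrow. Runx3, Nfix and Cebpb held much of the excess in batch 2, and without them the shares were 16.4% (12.5 to 20.9) and 18.0% (13.9 to 22.7). The first of these intervals holds the 12.9% of all promoters, and the second begins just above their 13.7%. Active promoter bins took 7.70% (fetal) and 9.39% (adult) of calls in batch 1, against 15.6% and 18.3% for all promoters, and 11.2% and 13.1% in batch 2, against 18.2% and 20.3%. Without the same 3 genes the batch 2 values were 15.1% (11.3 to 19.5) and 17.0% (13.0 to 21.7), with intervals that hold the values over all promoters. Open chromatin by ATAC was met by 47.8% and 50% of the members' calls in batch 1, against 53.0% and 54.6%, and by 60.6% and 62.0% in batch 2, against 56.7% and 57.2%.

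**Figure D2:**
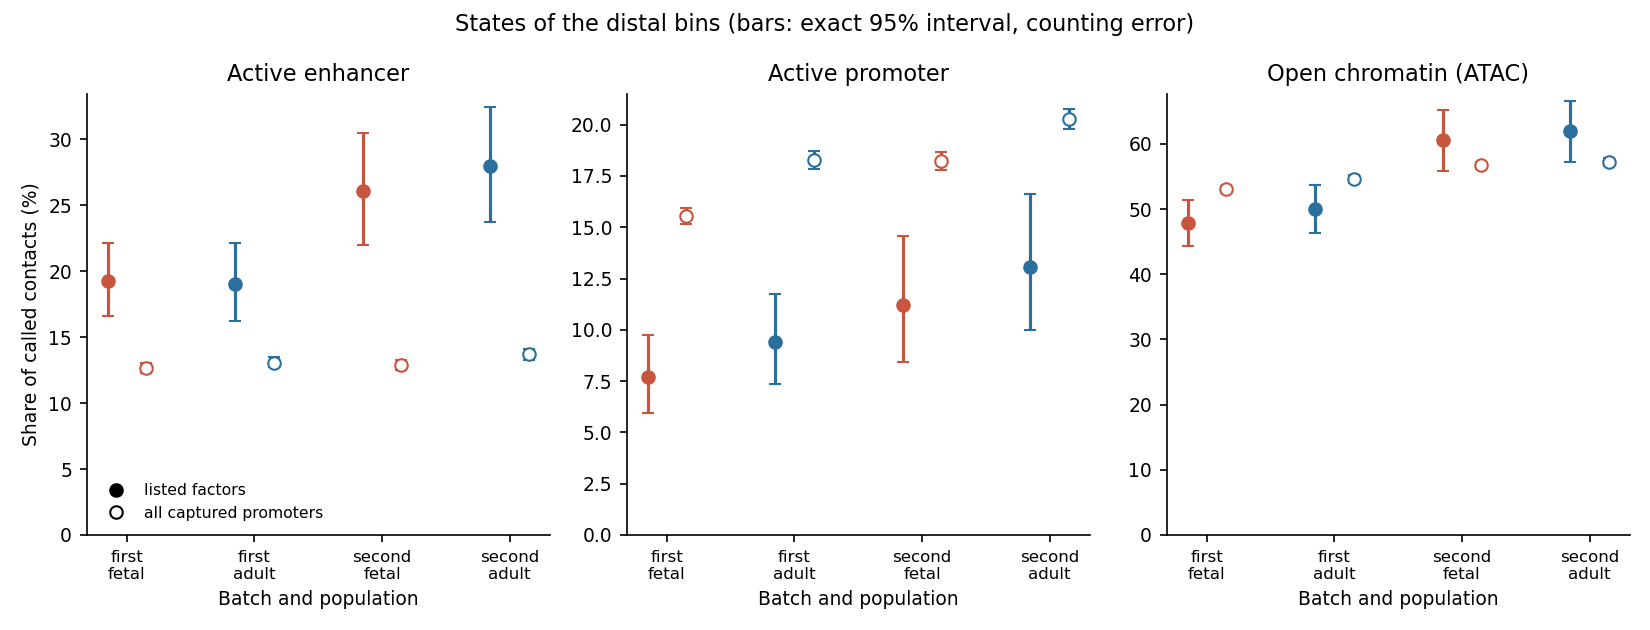
Share of called contacts (%) whose distal bin was annotated as an active enhancer, an active promoter or open chromatin in the same population, by batch and population; filled points are the listed genes, open points all captured promoters, and bars exact 95% intervals for counting error. The enhancer share of the listed genes is 19.3% and 19.1% in batch 1 and 26.1% and 28% in batch 2, above the open points in each case, while the promoter share is below them.

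The excess was spread unevenly over promoters. Among members with at least 20 calls, the median enhancer share was 16.2% of fetal calls (14 promoters) and 13.2% of adult calls (13 promoters) in batch 1, against 10.3% and 10.5% for all such promoters. In batch 2 it was 22.6% and 21.6% (10 promoters each), against 10.7% and 11.5%. At least 40% of calls met active enhancers at 1 of 14 promoters in fetal cells of batch 1 (7.14%, against 3.07%) and at 1 of 13 in adult cells (7.69%, against 1.91%). The numbers were 3 of 10 in each population of batch 2 (30%, against 2.06% and 2.95%). A stricter score, 1 unit above the lowest of each batch, gave 25.8% and 22.6% for members against 13.7% and 13.7% for all promoters in batch 1, and 32.8% and 33.0% against 13.7% and 14.8% in batch 2.

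Among genes of the clustered Hox family, which specify position along the body axis and are used again in blood stem cells, 7 genes with 13 promoters were captured, all in batch 1. They had 125 fetal and 142 adult calls, with more fetal calls at 5 promoters, more adult calls at 5 and equal numbers at 3. Active enhancers took 30.4% of their fetal and 25.4% of their adult calls. The median distance, 338 kb in both populations, was longer than the 178 and 150 kb of all listed promoters of that batch. Hoxa3_1 (chr6:52162817-52163955, mm9) had 20 fetal and 39 adult calls, and Hoxa10 (chr6:52184353-52185361) had 9 and 16. Hoxa7 (chr6:52168546-52169114) went the other way with 17 and 9, while Hoxa7_1 had 16 and 18 and Hoxa7_2 had 9 and 9. Hoxa10_1 had 4 and 8 calls, and Hoxa3 had 3 and 1. Promoters of 1 gene thus differed in direction, and these neighbouring fragments share a locus and are not replicates.

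Nearly all Hoxa contacts lay on 1 side of the cluster. Of 139 contacts of the 7 Hoxa fragments, 129 went to lower coordinates, and most fell in 3 zones of chromosome 6. The zone farthest away (chr6:51118001-51162001) lay 990 to 1070 kb from the fragments and took 42 contacts of 6 fragments, 24 called in fetal cells, 33 in adult cells and 15 in both. The middle zone (chr6:51822001-51832001, 318 to 365 kb) took 31 contacts with 24 fetal and 20 adult calls, and the near zone (chr6:51954001-51964001, 176 to 228 kb) took 27 with 13 and 22. Zones were drawn after the contacts were seen, around bins met by at least 3 fragments. The coordinates given run from the first to the last of those bins. Contacts and distances of a zone were counted over a wider stretch, and some lie outside its coordinates. The bin chr6:51122001-51124001 was called from 6 fragments (all but Hoxa3) in both populations. Its counts ran from 12 to 22 per fragment in fetal and from 11 to 37 in adult cells. It was open in both populations and annotated as an active enhancer in fetal cells alone. From Hoxa10 the bin had a count of 16 in fetal cells (exact Poisson 95% interval 9.15 to 26, score 4.30) and 37 in adult cells (26.1 to 51.0, score 21.68). The bin at the promoter of Skap2, a signalling adaptor gene, had 28 fetal (18.6 to 40.5) and 48 adult counts (35.4 to 63.6) from Hoxa3_1 and was called in adult cells with a score of 27.58. From Hoxa7 it had 34 and 37 counts and was called in both. Among all members of batch 1, 29 fetal (3.60%) and 35 adult calls (4.83%) lay beyond 1 Mb, against 0.908% and 1.11% for all promoters, and the Hoxa fragments held 23 and 33 of them.

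**Figure D3:**
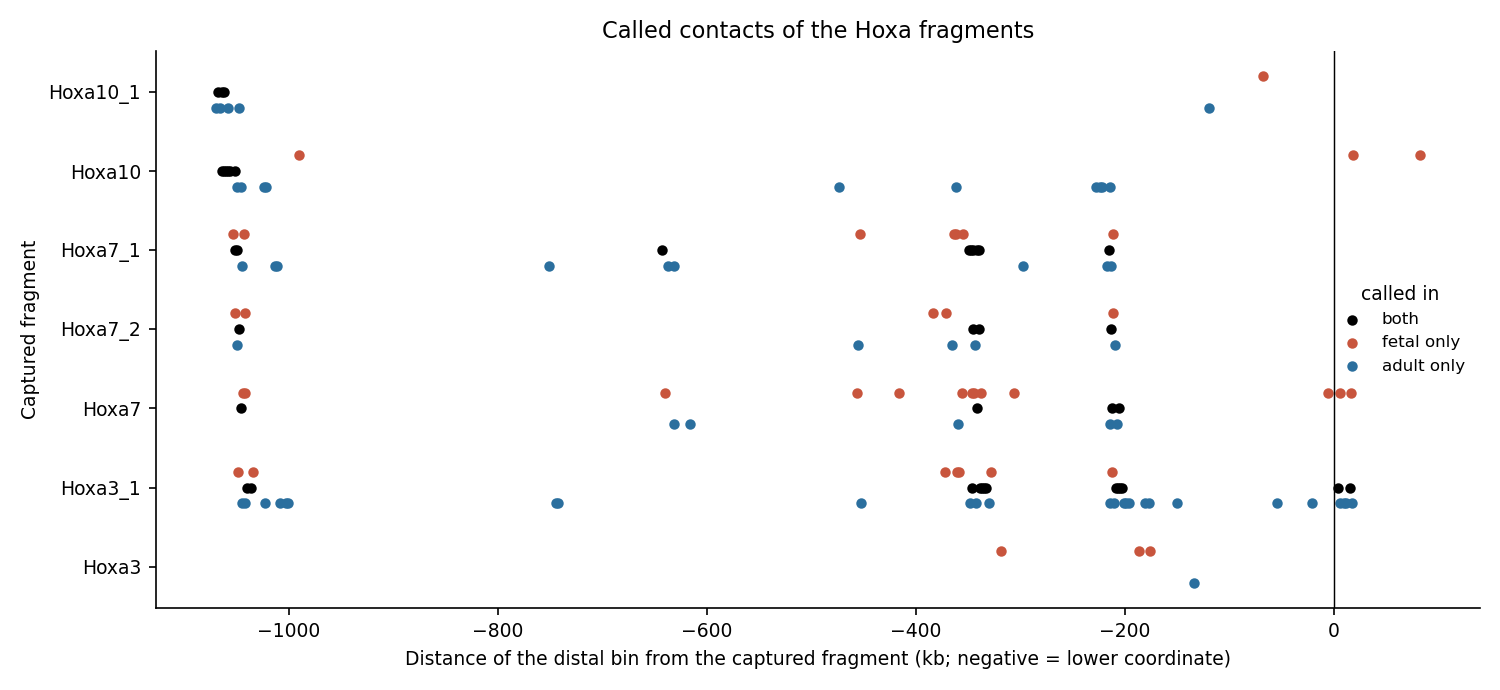
Distance in kb of each called distal bin from its captured fragment (horizontal axis, negative towards lower coordinates) for the 7 Hoxa fragments, coloured by the population in which the contact was called. Of the 139 contacts 129 lie to the left of the fragment, most of them in clusters between 990 and 1070, 318 and 365, and 176 and 228 kb.

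The Hoxb promoters reached less far and met fewer enhancers. Hoxb3_1 had 19 fetal and 17 adult calls, of which 5 and 1 met active enhancers, and Hoxb2 had 12 and 7 calls with 1 and 0. Hoxb3 and Hoxb3_2 had 3 and 3 and 2 and 2 calls. Hoxb4, a gene known for expanding blood stem cells when overexpressed, had 0 fetal and 3 adult calls on a fragment of 210 bp with 8 fetal and 28 adult counts. Hoxd8_2, listed at 0 FPKM in both populations, still had 11 and 10 calls, at a median of 431 and 375 kb and none at an active enhancer. FPKM was higher in adult cells at 12 of the 13 Hox promoters, but at none by 2-fold: the Hoxa10 entries were 3.02 and 3.49 fetal and 4.65 and 6.18 adult, and Hoxb4 was 1.06 and 2.11. Adult FPKM was also the higher at 32 of the 53 listed promoters of batch 1, Hox included. The same count was not made over all captured promoters, and several of the 13 are entries of 1 gene.

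Of the factors of red cell and megakaryocyte development, Klf1, the master regulator of late red cell genes, had the largest fetal-to-adult expression ratio of any listed gene once 1 was added to FPKM, with 24.0 FPKM in fetal and 2.40 in adult cells (log2 ratio 2.88). Its captured fragment (chr8:87424745-87426183, mm9) nevertheless had fewer fetal than adult calls, 30 and 39, of which 18 were shared. Active enhancers took 5 of the fetal and 10 of the adult calls. Of its 51 bins 12 were active enhancers in fetal cells and 15 in adult cells, and 12 were so in both. Of the 12 bins called in fetal cells alone 6 lay 150 to 200 kb away on the lower-coordinate side. Of the 21 called in adult cells alone 9 lay within 60 kb, as did 7 of the 18 shared bins. At these 9 bins the count intervals of the populations overlapped, with 23 fetal and 39 adult counts 58.5 kb away and 64 and 65 counts 32.5 kb away. The position of such calls therefore does not show a difference in counts. All 5 captured erythroid markers other than Klf1 were also higher in fetal cells, among them Epor at 15.8 and 6.22 FPKM. Their part in the Klf1 values was not tested. Fewer cells of a type and less RNA per cell cannot be told apart in these pooled samples.

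**Figure D4:**
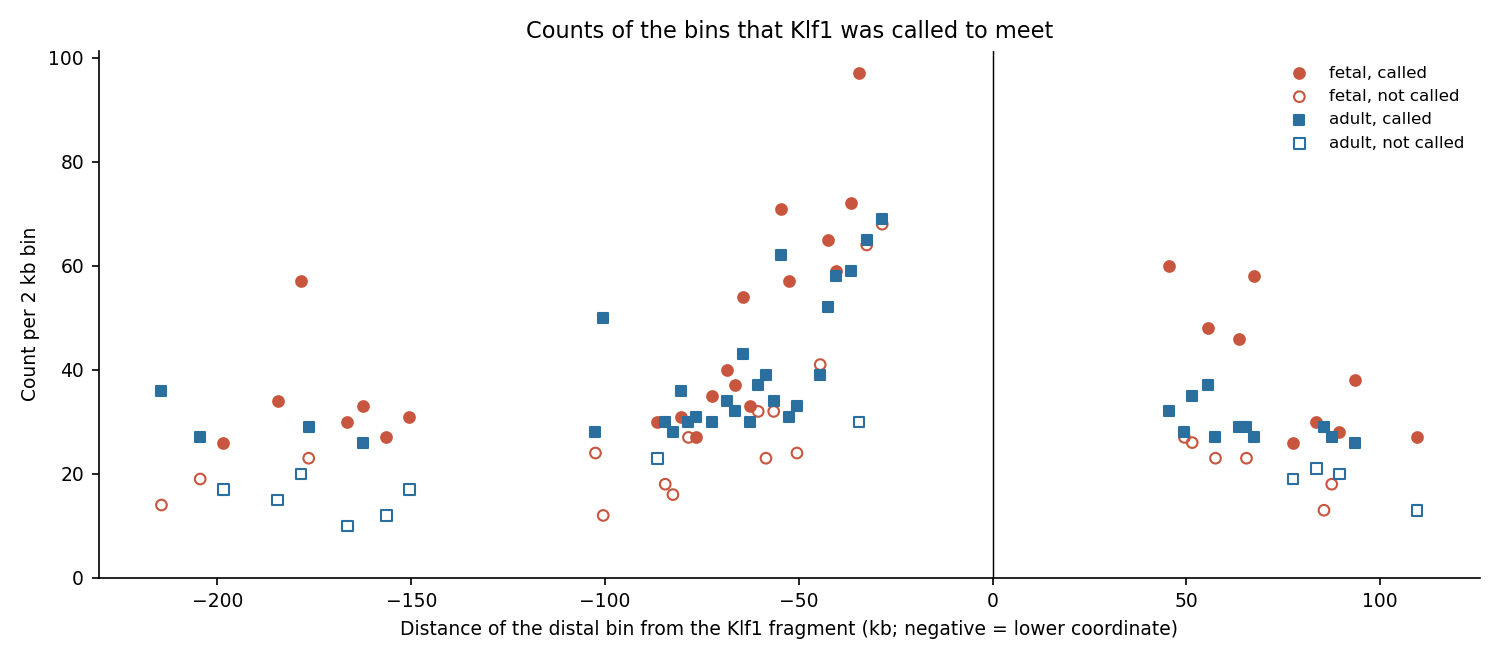
Count per 2 kb bin (vertical axis) against distance in kb from the Klf1 fragment for every bin called in either population; circles are fetal and squares adult, filled where the bin was called in that population. The bin 178 kb below has 57 fetal and 20 adult counts, and of the pair of bins at Nfix, the one 100 kb below has 12 and 50 and the one 102 kb below has 24 and 28.

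Klf1 and Nfix, which encodes a nuclear factor I protein used by blood stem and progenitor cells, lie 100 kb apart on chromosome 8, and their contact was called in adult cells alone. From Klf1, the bin chr8:87324001-87326001 had 12 fetal (6.20 to 21.0) and 50 adult counts (37.1 to 65.9, score 7.59). The adjoining bin chr8:87322001-87324001, which the Nfix fragment also spans, had 24 (15.4 to 35.7) and 28 counts (18.6 to 40.5, score 2.60), with intervals that overlap. In the reverse direction, from Nfix, the bin holding Klf1 had 19 (11.4 to 29.7) and 47 counts (34.5 to 62.5, score 2.13). Both fragments were captured from the same libraries, so these views are not independent. The count intervals of the populations do not overlap at the first of these bins or in the view from Nfix, although Klf1 had more fetal than adult counts over all its listed contacts (1874 and 1641), as did Nfix (2812 and 2556). The bin at the promoter of G430095P16Rik was called from Klf1 in fetal cells alone, with 57 (43.2 to 73.9, score 10.68) and 20 counts (12.2 to 30.9). Its adjoining bin chr8:87248001-87250001 was called from Klf1 in adult cells alone, with 23 (14.6 to 34.5) and 29 counts (19.4 to 41.6, score 2.92). Nfix met the bin at G430095P16Rik in both populations, with 215 and 187 counts. It also met Lyl1, a blood stem cell factor, in both (38 and 35). Nfix itself was expressed at 4.39 fetal and 13.8 adult FPKM. Of its 37 fetal and 41 adult calls 34 were shared, and 19 and 20 met active enhancers.

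Other Krüppel-like factors had fewer calls. Klf4, known from stem cell reprogramming and monocyte development, was listed at 0.161 fetal and 3.33 adult FPKM and had 0 and 3 calls, 2 of the 3 at adult active enhancers. The strongest, 690 kb away at chr4:56234001-56236001, had 7 and 21 counts (score 4.22). Klf9, a hormone-responsive repressor, was at 0.502 and 4.12 FPKM with 10 and 6 calls, opposite in direction. Klf7 had 21 and 14 calls, and Klf11 had 8 and 9, among them a contact with Rrm2, a ribonucleotide reductase gene, that was called in both (130 and 109 counts, scores 42.22 and 45.68). Over the 8 Klf promoters there were 89 fetal and 86 adult calls, with 4 promoters in each direction. Once 1 was added, FPKM was at least 2-fold higher in fetal cells at 1 and in adult cells at 4. Klf7, at 0.567 and 1.36 FPKM, passes only without that addition.

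Gata1, required for red cells and megakaryocytes, was listed at 15.6 and 8.09 FPKM (Gata1_1 at 12.4 and 5.98) but had only 3 and 3 calls, and Gata1_1 had 1 and 0. Gata3_1 had 20 and 22 calls, 6 shared, and its highest-scoring contact was called in adult cells alone, with 6 (2.2 to 13.1) and 18 counts (10.7 to 28.4) at a bin 297 kb away that was an adult active enhancer. Gata3 had 5 and 2 calls. Of the 29 fetal and 27 adult calls of the 4 Gata promoters, 1 and 2 met active enhancers.

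The Id genes, whose products block basic helix-loop-helix factors, and Gfi1, a repressor of granulocyte and stem cell development, were all at least 2-fold higher in fetal FPKM. Id1 was at 6.64 and 0.736, Id2 at 2.76 and 0.534, Id3 at 3.73 and 0.131, and Gfi1 at 11 and 1.54 from a first and 10.1 and 1.38 from a second promoter entry. Contacts did not follow in a common direction. Id1 had 11 fetal and 15 adult calls, Id3 had 21 and 26, and Id2 had 4 and 2. Gfi1 had 5 and 13 calls (chr5:108154808-108155045) and Gfi1_1, 1.61 kb from it, had 9 and 8. The pair of Gfi1 fragments shared 2 fetal and 4 adult bins. Both met the promoter of Rpap2 in both populations, with 11 and 22 counts from Gfi1 and 22 and 19 from Gfi1_1. The bin chr5:108298001-108300001 had 18 fetal and 10 adult counts from Gfi1, called in both populations, and was a fetal active enhancer. Granulocyte and macrophage markers were higher in fetal cells as well (Mpo at 46.1 and 2.04 FPKM, C1qa at 9.97 and 0.291). Their part in the Id and Gfi1 values was not tested.

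Runx2_1 (chr17:44870956-44872018, mm9), with 60 fetal and 46 adult calls, had the most calls of any listed promoter, and Runx3 (chr4:134676299-134677098) had 38 and 52. RUNX2 is best known as the bone-forming factor and RUNX3 as a regulator of T cells, and both genes were higher in adult FPKM: Runx2_1 at 3.70 and 14.1, Runx2_2 at 2.02 and 7.5, Runx3 at 4.50 and 9.71. Over the 4 Runx promoters, 2 in each batch, 34 of 140 fetal calls (24.3%) and 62 of 138 adult calls (44.9%) met active enhancers. Runx2_1 accounted for 9 and 23 of these, and Runx3 for 22 and 33. At Runx2_1 the annotation itself differed between populations: of its 83 contacts 18 bins were fetal and 25 adult active enhancers, 17 of them both. Among its 23 shared contacts 7 were fetal and 13 adult enhancers. Its highest-scoring contact, chr17:44750001-44752001, 120 kb away, was an enhancer in both and was called in adult cells, with 11 (5.49 to 19.7) and 25 counts (16.2 to 36.9, score 9.07). At Runx3, 33 of 60 bins were fetal and 36 adult enhancers, 29 of them both, and the 30 shared contacts held 21 and 20; the rest of its enhancer calls, 1 fetal and 13 adult, were population-specific. Its top contact, 53.7 kb away at chr4:134622001-134624001, had 45 (32.8 to 60.2, score 4.05) and 88 counts (70.6 to 108, score 18.59). Runx2_2, 80.1 kb from Runx2_1, shared 4 fetal and 7 adult bins with it, and of its 40 and 38 calls 2 and 5 met active enhancers.

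ETS factors leaned the other way at their enhancers. The 8 ETS promoters had 131 fetal and 117 adult calls, of which 35 (26.7%) and 17 (14.5%) met active enhancers. Ets1, a lymphoid and endothelial activator, had 53 and 51 calls with 12 and 4 at enhancers, Elk4 had 44 and 40 with 14 and 7, and Ets2_1 had 23 and 13 with 7 and 2. The annotation differed here as well. Of the 79 Ets1 bins 17 were fetal and 9 adult enhancers, as were 15 and 12 of the 59 Elk4 bins. Ets1 met the promoter of its ETS neighbour Fli1, 154 kb away, in both populations with 12 and 14 counts. Elk4 met Mfsd4 in both, with 100 and 58 counts. Etv6, needed for adult blood stem cells, had 4 and 4 calls at 16.3 and 30.1 FPKM, and Elf1, Elf4 and Elk3 had 8 or fewer calls each. FPKM was higher in adult cells at 6 of the 8 promoters, and once 1 was added to FPKM the ratio reached 2-fold at none. Over all listed promoters adult FPKM was the higher at 32 of 53 in batch 1 and 21 of 30 in batch 2. Without that addition Elf1 (10.9 and 22.7 FPKM) and Elk4 (3.49 and 7.27) lie just past it.

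Ikzf1, which encodes the lymphoid regulator Ikaros, had 41 fetal and 37 adult calls, 15 and 13 of them at active enhancers, and 27.0 and 15.9 FPKM. Its top contact, 120 kb away at chr11:11464001-11466001, was an active enhancer in both populations and had 42 and 37 counts (scores 15.46 and 20.80). The adjoining fragment Ikzf1_1 had 4 and 6 calls, and all of them fell in bins also called from Ikzf1. Ikzf5 had 19 and 11 calls with none at active enhancers, and Ikzf2 had 3 and 1.

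Cebpb, an activator of emergency granulocyte production, had 44 fetal and 25 adult calls, 19 of them shared, and all of its 50 contacts lay on the higher-coordinate side (fragment chr2:167514105-167515622, mm9). Active enhancers took 21 fetal and 11 adult calls. Its 3 highest-scoring contacts formed a run 202 to 206 kb away and were called in both populations. The strongest had 106 (86.8 to 128) and 99 counts (80.5 to 121). At bins that were enhancers in fetal cells alone it made 6 fetal-specific contacts and 1 adult-specific contact. Cebpe, which acts later in granulocytes, ran the other way, with 17 and 25 calls at 1.25 and 0.131 FPKM, and Cebpb was at 7.81 and 3.93. The 4 captured granulocyte markers other than Cebpe were also higher in fetal cells, and their part was not tested. Nfic, the other nuclear factor I gene, had 43 and 38 calls at 9.14 and 26.5 FPKM, with 9 and 10 at enhancers.

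The nuclear receptor genes, which respond to retinoids, steroids or haem, had 133 fetal and 124 adult calls over 7 promoters. Rxra, the shared partner of many receptors, had 3 captured promoters with 17 and 12, 41 and 30, and 38 and 43 calls (Rxra, Rxra_1 and Rxra_2), and the latter pair shared 14 fetal and 12 adult bins. Rarg, a retinoic acid receptor gene, had 20 and 14 calls of which only 2 were shared. The clock repressors Nr1d1 and Nr1d2 had 8 and 14 and 7 and 10 calls at 1.74 and 3.12 and 1.04 and 3.28 FPKM. Nr1d1 met the promoter of Psmd3 in both populations (57 and 59 counts), and Nr1d2 met Rpl15 (137 and 183). Nr3c1, the glucocorticoid receptor gene, had 2 and 1.

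Among Sox genes, which encode HMG-box factors, 4 of 5 promoters had more fetal calls, 49 against 35 in all. Over all captured promoters 48.1% in batch 1 and 50.1% in batch 2 had more fetal calls. The 5 Sox promoters, 2 of batch 1 and 3 of batch 2, are too few to set against these shares. Sox18, an endothelial and lymphatic factor, had 7 fetal and 1 adult call and 4.80 and 0.871 FPKM. Of the 3 captured endothelial markers Cdh5 was at 2.53 and 0.00611 FPKM, Kdr at 0.585 and 0.583, and Pecam1 at 5.82 and 7.90, and their part was not tested. The Sox18 bin at Uckl1 had 28 (18.6 to 40.5) and 3 counts (0.619 to 8.77), with a fetal score of 2.41. The other fetal calls of Sox18 scored 1.36 to 1.77 and its adult call 1.37, close to the lowest score of 1.3 in batch 1. Sox4, important in lymphoid progenitors, had 10 and 5 calls, of which 5 and 3 met active enhancers, while Sox6, a repressor of embryonic globin genes, had 8 and 5 calls at 0.362 and 5.40 FPKM and none at an active enhancer. Sox12 had 23 and 24 calls, and Sox13 had 1 and 0. Maf, a macrophage and T-cell factor, had the largest fetal ratio of calls among promoters with at least 10, with 23 and 9 calls on a fragment of 315 bp, at a median of 319 and 395 kb. Of its contacts 11 bins were fetal and 4 adult active enhancers, its listed counts were 157 and 114, and it was at 0.773 and 0.276 FPKM. Macrophage markers were higher in fetal cells, and their part was not tested.

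Tbx3, a limb and heart factor, was listed at 0 FPKM in both populations and yet had 56 fetal and 33 adult calls, 10 of them shared, of which 3 and 2 met active enhancers. Its highest-scoring contact, 794 kb away, had 20 (12.2 to 30.9) and 8 counts (3.45 to 15.8). Nkx2-3, a homeobox gene of spleen and gut, had 39 and 29 calls at 8.48 and 9.85 FPKM and met the promoter of Got1 in both (39 and 40 counts). Pou2f2, a B-cell factor, had 28 and 22 calls, Lhx6_1 had 17 and 13, Pbx2 had 3 and 1, Pbx3 had 0 and 3, and Six5 had 1 and 1. The forkhead genes balanced at 40 and 40 calls over 5 promoters. Foxd2, with 17 and 22 calls, was the largest, and its top contact 243 kb away was an active enhancer in both populations (81 and 61 counts). Foxo1, which supports stem cell quiescence, had 1 and 1.

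Of the 4 genes taken by name alone, Tbxas1, which encodes thromboxane synthase, had 3 promoters at 12.6 and 46.6, 3.19 and 10.4, and 7.45 and 25.4 FPKM. They had 1 and 9, 18 and 22, and 23 and 24 calls in the same order. Megakaryocyte markers were also higher in adult cells (Pf4 at 14.2 and 113 FPKM), and their part was not tested. Foxred2 had 18 and 12 calls, Rars2 had 14 and 9, and Pbxip1 had 4 and 3.

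Expression differed by at least 2-fold at 22 promoters, on the log2(FPKM + 1) scale, which understates the change of weakly expressed genes. In batch 1, 4 of 53 were higher in fetal cells (7.55%, against 5.07% of all promoters) and 7 in adult cells (13.2%, against 13.3%). In batch 2, 3 of 30 (10%, against 11.4%) and 8 of 30 (26.7%, against 16.1%) passed. By the authors' deposited table, the mark of differential expression is set for 22 of the 53 promoters of batch 1 and all 30 of batch 2, as for all 1829 promoters captured in batch 2. Of the 7 promoters higher in fetal cells 3 had more fetal and 4 more adult calls. Of the 15 higher in adult cells 8 had more adult and 7 more fetal calls. The 15 include 3 entries of Tbxas1, no transcription factor gene, all with more adult calls. They also include 2 of Runx2, both with more fetal calls, and the 7 include 2 of Gfi1. Entries of 1 gene are not separate cases, here or in the enhancer counts below. For comparison, among all promoters at least 2-fold higher in fetal FPKM, 50.5% in batch 1 and 58.7% in batch 2 had more fetal calls, and 40.4% and 31.2% fewer. Among those higher in adult cells 46.7% and 42.5% had more adult calls, and 45.2% and 42.5% fewer. Counted over calls at active enhancers, 7 of the 15 adult-high promoters had more adult calls, 3 more fetal and 5 equal numbers, and of the 7 fetal-high promoters 3 had more fetal, 2 more adult and 2 equal numbers. Over all promoters the enhancer calls went the way of FPKM at 39.4% of fetal-high promoters in batch 1 and 32.2% in batch 2, and the opposite way at 22.2% and 20.2%. For adult-high promoters these were 35.9% and 31.3%, and 25.9% and 20.4%.

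**Figure D5:**
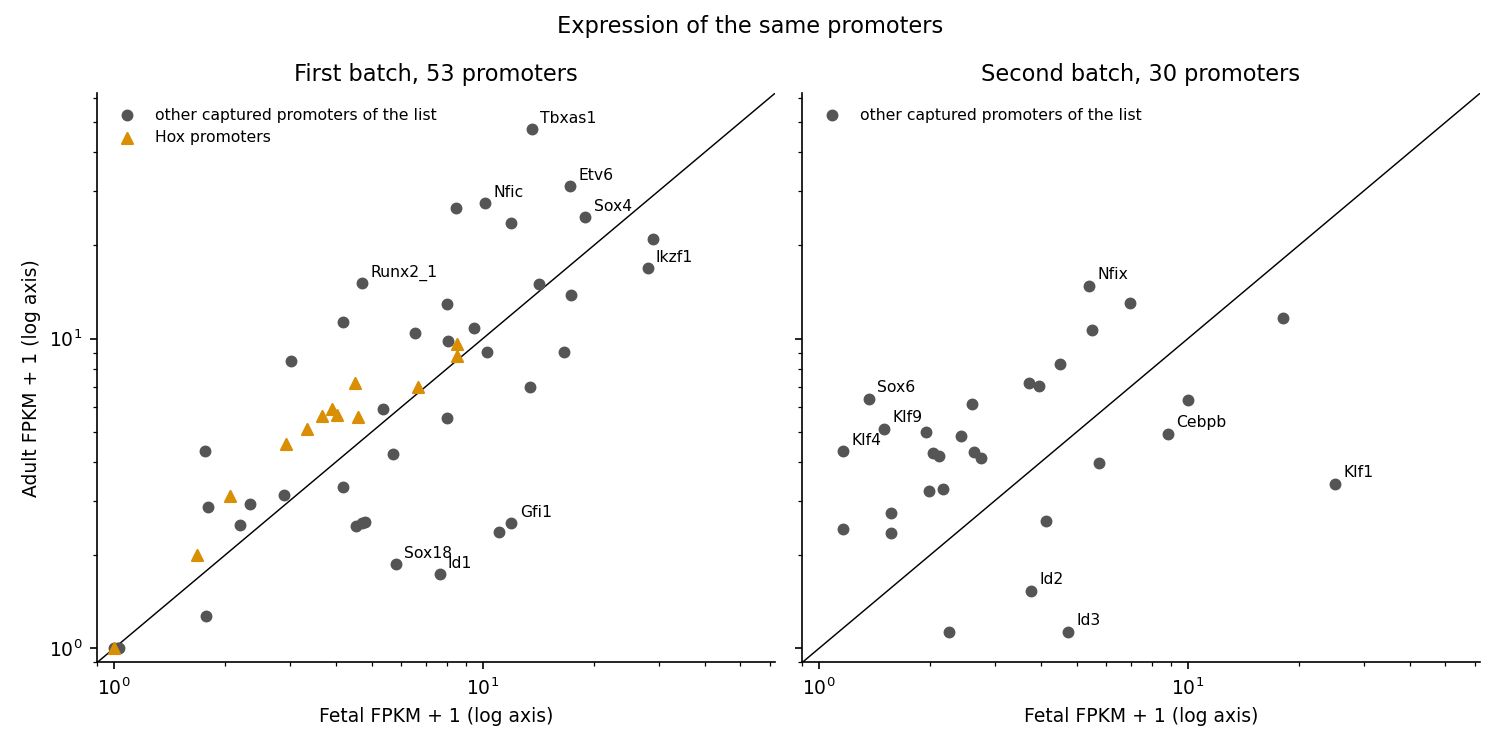
FPKM plus 1 per captured promoter in adult (vertical) against fetal cells (horizontal), both on log axes, by batch; triangles are Hox promoters and the line marks equal values. Klf1 (24.0 fetal, 2.40 adult), Gfi1, Id1, Id3 and Sox18 lie on the fetal side, and Sox6 (0.362 and 5.40), Klf4, Klf9 and Runx2_1 on the adult side.

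Contacts of the listed genes at bins whose enhancer state differed between populations were few. In batch 1, 52 contacts called in 1 population met bins active in fetal cells alone, and 31 of them were fetal-specific (59.6%, 45.1 to 73.0), against 54.9% over all promoters. At bins active in adult cells alone 12 of 30 were (40%, 22.7 to 59.4), against 43.4%. In batch 2 the values were 12 of 28 (42.9%, 24.5 to 62.8), against 59.6%, and 7 of 23 (30.4%, 13.2 to 52.9), against 40.2%. Each interval holds the value over all promoters.

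Promoters of listed genes met each other in 10 contacts, 5 in each batch. In batch 1 they were Id1 with Sox12 (8 and 5 counts, fetal call), Hoxa3_1 with Hoxa7 and with Hoxa7_1 (adult calls), and Hoxa7 with Hoxa3_1 and with Hoxa10 (fetal calls). The 4 Hoxa contacts spanned less than 20 kb. Hoxa3_1 and Hoxa7 were called in opposite populations from their 2 ends, at similar fetal and adult counts. These were 203 and 180 from Hoxa3_1 (adult score 1.52) and 208 and 196 from Hoxa7 (fetal score 1.78). Hoxa3_1 had 136 and 133 counts with Hoxa7_1 (adult score 2.39), and Hoxa7 had 70 and 42 with Hoxa10 (fetal score 1.54). Their calls therefore do not show contacts of 1 stage. In batch 2, beside the 3 contacts of Klf1 and Nfix, Foxa3 and Six5 met each other in both populations, 70.9 kb apart, with 27 and 31 counts from Foxa3 and 34 and 30 from Six5. Contacts with any captured promoter of another gene numbered 37 in batch 1, 12 fetal-specific, 16 adult-specific and 9 shared, and 42 in batch 2, with 9, 11 and 22. The same count was not made over all promoters, so these numbers have no background beside them. Another 11 contacts joined a listed promoter to a different chromosome, 6 called in both populations and 5 in fetal cells. They were 4 of 1245 contacts in batch 1, against 654 of 49944 for all promoters. In batch 2 they were 7 of 630, against 416 of 39601. Sox4 and Nr1d2 each had such a contact with an infinite score in both, at 625 and 660 and at 1110 and 763 counts. These single bins held most of all listed counts of the promoter, 717 and 737 for Sox4 and 1511 and 1200 for Nr1d2. What gave them such counts was not tested.

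By their medians, fetal contacts reached farther than adult ones, at listed genes as at all promoters, whereas the share of calls beyond 1 Mb in batch 1, given above, was lower in fetal cells for both. The median distance was 178 fetal and 150 adult kb in batch 1, against 178 and 153 for all promoters, and 90.7 and 71.4 kb in batch 2, against 102 and 77.7. Where a promoter had 5 or more calls per population, the fetal median exceeded the adult one at 24 of 32 in batch 1 (75.0%, 56.6 to 88.5), against 68.5% of all, and at 15 of 19 in batch 2 (78.9%, 54.4 to 93.9), against 85.8%. The median difference per promoter was 17.7 and 10.0 kb, against 8.56 and 12.0 kb. Runx2_1 had medians of 260 and 121 kb, and Klf7 had 181 and 88.0 kb.

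Calls in the same bin in both populations numbered 284 in batch 1, which is 35.3% (32.0 to 38.7) of the fetal and 39.2% (35.7 to 42.9) of the adult calls, against 39.8% and 42.1% for all promoters. In batch 2 it was 236 contacts, 54.0% and 55.0%, against 52.3% and 56.0%. Of all listed contacts in batch 1 41.8% were called in fetal cells alone (against 38.9%), 35.3% in adult cells alone (35.4%) and 22.8% in both (25.7%). Batch 2 gave 31.9% (33.8%), 30.6% (29.1%) and 37.5% (37.1%). With a tolerance of 20 kb for a shared bin, 75.8% (fetal) and 78.9% (adult) of calls of batch 1 were shared, and 91.1% and 90.7% of batch 2. Counts at listed contacts differed by at least 2-fold, with 1 added, in the fetal direction at 266 of 1245 contacts of batch 1 (21.4%, against 21.1%) and in the adult direction at 177 (14.2%, against 14.3%). In batch 2 these were 71 of 630 (11.3%, against 13.9%) and 22 (3.49%, against 4.32%). Within batch 2, shared contacts at Nfix (34 of 44) and Runx3 (30 of 60) contrasted with Rarg (2 of 32). Within batch 1, where 22.8% of the members' contacts were shared, Runx2_2 had 6 of 72 and Tbx3 10 of 79.

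Promoters under 1 FPKM in both populations numbered 5 of 53 in batch 1 (9.43%, against 7.99%): Hoxd8_2, Tbx3, Lhx6, Lhx6_1 and Maf. They had 107 fetal and 66 adult calls, of which 23 were shared (21.5% of fetal calls, against 30.3% for all such promoters and 37.4% for the other members). Their median distances were 346 and 331 kb, against 206 and 175 kb for all such promoters. Active enhancers took 14.0% of fetal and 10.6% of adult calls, against 8.70% and 7.58%. Tbx3 supplied 56 of the fetal and 33 of the adult calls, 3 and 2 of them at active enhancers. Maf supplied 23 and 9, with 9 and 2 at active enhancers.

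Further regulators of blood lineages from a list of 45 genes outside this set gave 27 captured genes with 40 promoters, 31 in batch 1 and 9 in batch 2. They had 504 fetal and 520 adult calls, with more fetal calls at 17 promoters and more adult calls at 17, and 2 and 4 promoters passed 2-fold. Active enhancers took 25.0% (21.3 to 29.0) of their fetal and 27.9% (24.1 to 32.0) of their adult calls. Hhex, a homeobox gene of blood and endothelium, had 39 and 41 calls with 19 and 16 at enhancers. Myb, required for definitive blood formation, had 22 and 23 with 3 and 10, and Prdm16, a stem cell maintenance gene, had 39 and 39 with 4 and 12. The fetal regulators Hmga2 and Lin28b were at 28.2 and 1.75 and at 2.96 and 0.157 FPKM, with 5 and 5 calls and 3 and 0 calls.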

How the data were processed

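Capture-C contacts of fetal and adult blood stem cells were taken from the authors' deposited table. The submitters' processing notes name Trim Galore 0.41, Bowtie2 2.2.2 and the build mm9, and LiMACC is the caller named by the authors. Filtering of reads and duplicates is not given in the sources used here. Deposited by the authors are, for each contact, a whole-number count in each population, a score on a scale like −log10 p, an FPKM per promoter entry, and 0 or 1 states of distal bins. Whether a count sums or averages libraries is not stated, and nothing says how FPKM and states were made.

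Calls, overlaps, distances and bin states were tallied with Python 3.11.15, pandas 2.3.3, NumPy 2.4.6 and SciPy 1.17.1, after a check on 300 simulated promoters. Distance ran from fragment middle to bin middle. All 64 gene names matched the gene table, and 0 value columns were unassigned. Members and lists were chosen with earlier results of these data known. Named genes were the 8 highest and 8 lowest ratios of calls among promoters with at least 10 calls, the 6 with most calls in each population, the 6 largest FPKM ratios each way, all Hox promoters and a fixed list; members outside this rule were named after their values were seen. Contacts at different bins of 1 promoter are not replicates, and no test was made. Alternatives comprised a stricter score, distance limits, merging of bins, wider overlap, 1 promoter per gene, another pseudocount or FPKM limit, and leaving out gene groups.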

Additional observations from a re-analysis of the deposited data

How the results depend on the processing

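No paired analysis was possible because the table pools the libraries of a population within each batch, and for the same reason no replicate could be left out. Of 152 alternative values for 28 results, 126 stayed within the interval of the value reported (or within 1.5 times of a count), 26 did not, and none reversed; for those below the cause was not tested. Low depth limits batch 1, where a called contact had a median count near 11.

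The stricter score raised the share of calls at active enhancers to 25.8% (fetal) and 22.6% (adult) in batch 1 and 32.8% and 33.0% in batch 2, and that at active promoters in batch 1 to 10.5% and 12.8%. With it the shared part of adult calls was 35.4% in batch 1 and 59.8% in batch 2, 5.56% of fetal calls of weakly expressed members were shared, the fetal median exceeded the adult one at 95% of promoters of batch 1, and contacts between members fell to 1 and 3. Counting bins within 20 kb as shared gave 75.8% (fetal) and 78.9% (adult) in batch 1 and 91.1% and 90.7% in batch 2. With 1 promoter per gene 43.1% of adult calls in batch 1 were shared. A minimum of 20 kb left 1 contact between members in batch 1, and widening bins by 5 kb gave 11. A pseudocount of 0.1 gave 9 promoters higher in fetal cells in batch 1 and 17 higher in adult cells in batch 2. Chosen after seeing the data, leaving out the 4 genes that encode no transcription factor left 4 promoters higher in adult cells in batch 1. Leaving out Runx3, Nfix and Cebpb in batch 2, also chosen then, gave 16.4% and 18.0% at active enhancers and 15.1% and 17.0% at active promoters.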
